A study of Mus musculus with 12 samples.

Results

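The genes described here encode partners of the catalytic subunits in the COMPASS family of histone H3 lysine 4 methyltransferase complexes. They are the shared core subunits Wdr5, Rbbp5, Ash2l and Dpy30, the subunits Hcfc1, Hcfc2, Cxxc1 and Paxip1, which occur in some of the complexes, and Men1 (menin) and Psip1 (LEDGF), whose products bring KMT2A to chromatin. They were chosen by name and matched through the Ensembl identifiers of the deposited table to GRCm38 symbols. All 10 were among its 18911 genes, and all 10 were among the 17076 genes tested. RNA was sequenced from mouse neural progenitor cells (mNPCs), which were grown from the hippocampus of newborn C57BL/6J pups in FGF-2 and EGF.

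The 12 libraries covered 4 genotypes with 3 libraries each. Kmt2a+/+ carried 2 intact Kmt2a alleles, and Kmt2a+/LSL carried on 1 allele a loxP-flanked transcriptional stop (LSL) in the first intron. Nes-Cre+/- Kmt2a+/+ as well as Nes-Cre+/- Kmt2a+/LSL carried the same Kmt2a alleles and in addition 1 copy of a nestin-Cre transgene, whose recombinase acts in neural progenitors and their progeny and cuts out the stop there. The study speaks of the libraries within a genotype as biological replicates, and which pups or cultures each came from is not given in the sources used here, so the p-values measure the spread between these libraries. Cells were pooled in each library, so fewer cells of a type and less RNA per cell cannot be told apart.

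COMPASS complexes add methyl groups to lysine 4 of histone H3 at promoters and enhancers. The catalytic subunit, which is KMT2A to KMT2D, SETD1A or SETD1B, has little activity alone and works with a shared core of WDR5, RBBP5, ASH2L and DPY30. Menin and LEDGF, the product of Psip1, bring KMT2A to chromatin, and the remaining subunits are found with some catalytic subunits and not others. The comparisons ask whether the transcripts of these partner proteins differed in mNPCs with the stop in 1 Kmt2a allele, and whether removal of the stop by nestin-Cre moved them.

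Kmt2a itself had 6916, 7194 and 6720.5 normalized counts (counts scaled to the effective library size) in the Kmt2a+/+ libraries, and 3972, 3979 and 3991 in the Kmt2a+/LSL libraries. The Nes-Cre+/- Kmt2a+/+ libraries had 6777, 7427 and 7167, and the Nes-Cre+/- Kmt2a+/LSL libraries had 6535, 6814 and 6205. Every Kmt2a+/LSL library was therefore below every library of the other 3 genotypes. These values sum all Kmt2a transcripts, and the study reports a shift in Kmt2a+/LSL cells from the full-length isoform to a truncated one. The log2 fold change was −0.80 (SE 0.13) between Kmt2a+/LSL and Kmt2a+/+, with an adjusted p of 0.306 in edgeR's quasi-likelihood test with Benjamini-Hochberg adjustment, and 0.0385 without Kmt2a+/+ replicate 1.

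None of the 10 partner genes passed the test in any of these comparisons. Between Kmt2a+/LSL and Kmt2a+/+, 7 had a positive and 3 a negative log2 fold change (49.8% of all genes tested were positive), and their median was 0.06 beside −0.00064 over all genes tested. With Kmt2a+/+ replicate 1 left out, 4 were positive and 6 negative, with a median of −0.048 beside 0 over all genes. With edgeR's quasi-likelihood test, 0 of 10 passed an adjusted p of 0.05, beside 0% of all genes tested. At an unadjusted p of 0.05 it was 0 of 10 beside 2.11%, and DESeq2 and limma-voom also called 0 of the 10. The libraries of the 2 genotypes overlapped for all 10 genes, while 4.05% of all genes had libraries that did not overlap.

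Library totals lay between 18280008 and 28596919 estimated counts, at which 3 counts correspond to 0.105 to 0.164 CPM (counts scaled to these totals). The marker values in CPM that follow were scaled to the effective library size instead. On that scale, 3 counts of the marker Sox10 in Kmt2a+/+ replicate 1 were 0.178 CPM. The 8 neural progenitor markers, among them Nes, Sox2 and Pax6, were above 3 counts in every library and summed to between 5567 and 12896 CPM. The summed markers of microglia did not exceed 1.05, those of endothelium 3.15, and those of fibroblasts and mural cells 2.11 CPM, and C1qa and Cldn5 were not rows of the table. Kmt2a+/+ replicate 1 had the highest sums of the progenitor and of the 5 neuron markers (12896 and 1898 CPM, against at most 8176 and 1705 in the other libraries), and most of these sums came from Fabp7 (8960 CPM) and Map2 (1874 CPM). Sox2, Hes5, Msi1, Tubb3 and Rbfox3 of the same lists were lowest of the 12 libraries there, Hes5 at 2.14 CPM against at least 45.8 in the others. Its sums of the 4 astrocyte and 5 oligodendrocyte lineage markers were the lowest (331 and 471 CPM, against at least 577 and 769.9). The part of these cell types in the results was not tested.

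Kmt2a+/+ replicate 1 stood apart, and this touches every comparison with Kmt2a+/+. Its median absolute log2 deviation from the median library was 0.740, against 0.0696 to 0.246 in the other 11 libraries. The deviation followed the base composition of the transcripts. In the 10% of genes with the lowest GC content its median was 0.91 on the log2 scale above the median of the other 11 libraries, and in the 10% with the highest GC content it was −2.02. The library was either the lowest or the highest of the 12 for 8 of the 9 partner genes with a mean of at least 50 counts, and for 77.0% of all 11677 such genes.

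The partner genes lay on both sides of this gradient. Cxxc1 (GC content of the longest transcript 58.4%), Men1 (57.0%), Hcfc1 (54.4%) and Wdr5 (51.5%) were lowest in Kmt2a+/+ replicate 1, at log2 differences of −1.60, −1.32, −1.10 and −0.29 from the median of the other 11. Psip1 (42.5%), Hcfc2 (46.7%), Rbbp5 (46.9%) and Ash2l (44.0%) were highest there, at 1.36, 0.76, 0.64 and 0.27. Paxip1 (50.3%) was at −0.23 and Kmt2a (50.6%) at 0.04, and neither was at an extreme in this library. The following coding stretches show the contrast in composition. Each is a window of 90 bases inside 1 exon of the longest coding transcript, chosen for a GC share close to that of the whole transcript, 5′ to 3′ on the strand of the gene, with G and C in capitals. The GRCm38 annotation places the windows in exon 1 of 9 of Men1 (chr19:6335707-6335796, plus strand, 58.9% GC), exon 2 of 26 of Hcfc1 (chrX:73959643-73959732, minus strand, 54.4%), exon 5 of 16 of Psip1 (chr4:83474278-83474367, minus strand, 42.2%) and exon 2 of 15 of Hcfc2 (chr10:82700962-82701051, plus strand, 46.7%).
Men1: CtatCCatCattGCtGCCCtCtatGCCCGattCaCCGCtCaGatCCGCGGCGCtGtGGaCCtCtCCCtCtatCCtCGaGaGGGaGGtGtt
Hcfc1: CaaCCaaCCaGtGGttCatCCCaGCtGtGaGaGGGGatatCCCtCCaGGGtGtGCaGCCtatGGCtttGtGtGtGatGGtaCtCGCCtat
Psip1: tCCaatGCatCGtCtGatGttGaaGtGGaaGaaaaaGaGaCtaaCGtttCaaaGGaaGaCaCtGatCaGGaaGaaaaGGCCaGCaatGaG
Hcfc2: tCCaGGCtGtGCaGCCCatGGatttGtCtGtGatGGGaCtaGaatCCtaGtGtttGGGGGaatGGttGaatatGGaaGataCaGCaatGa

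**Figure D1:**
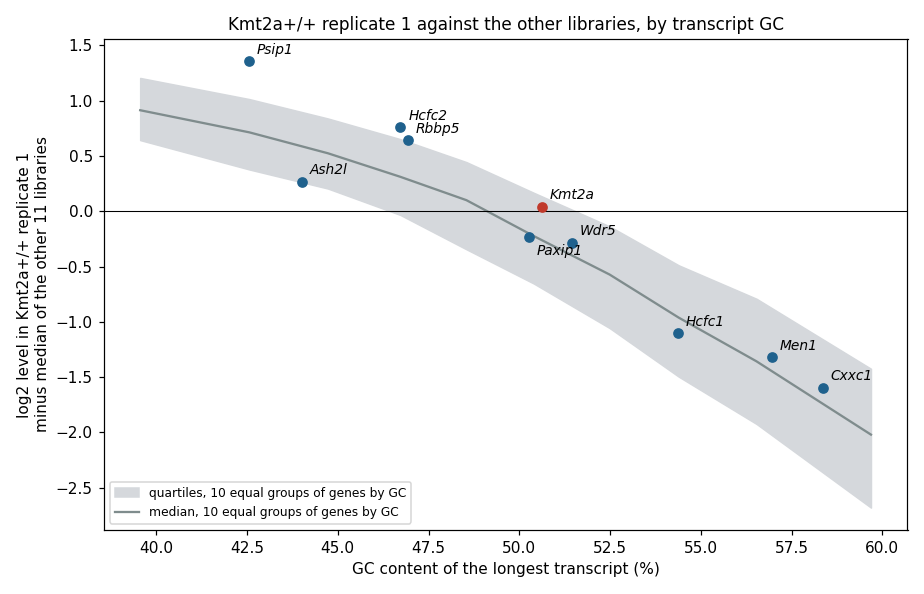
Log2 level in Kmt2a+/+ replicate 1 minus the median of the other 11 libraries, against the GC content of the longest transcript in percent, for 9 partner genes (blue), Kmt2a (red) and 10 equal groups of all genes ordered by GC content (line, median; band, quartiles). Psip1 stands highest at 1.36 and Cxxc1 lowest at −1.60, and the medians of the 10 groups fall from 0.91 to −2.02.

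The gradient also differed, less, in other libraries. The log2 difference between the 10% of genes with the highest and the 10% with the lowest GC content was −2.88 in Kmt2a+/+ replicate 1, 0.89 in Kmt2a+/+ replicate 3 and −0.87 in Nes-Cre+/- Kmt2a+/LSL replicate 1. In the other 9 libraries it lay between −0.24 and 0.28. Kmt2a+/+ replicates 1 and 3 together held 7 of the 9 lowest and 8 of the 9 highest values of the partner genes. For the partner genes, the log2 fold changes between Kmt2a+/LSL and Kmt2a+/+ are therefore given with all 12 libraries and without Kmt2a+/+ replicate 1.

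The partner genes covered a wide range of levels. The values in this paragraph are normalized counts per kb of the longest coding transcript, as the median over 12 libraries and the range over the 11 libraries other than Kmt2a+/+ replicate 1. Psip1 was the highest at 1995 (1580.5 to 2410.4), followed by Hcfc1 at 817 (752 to 1102), Ash2l at 695 (636 to 749) and Cxxc1 at 502 (396 to 608). These ranges did not overlap between neighbours in the order. Wdr5 at 332 (305 to 408), Men1 at 278 (198 to 360.5), Hcfc2 at 220 (171 to 249.95), Paxip1 at 175 (142 to 236) and Rbbp5 at 142 (105 to 179) followed, and from Cxxc1 to Rbbp5 each range overlapped that of the next gene. Dpy30 was far below, at 14.0 (0 to 22.2). Kmt2a was at 410 (241 to 451), which placed the medians of Psip1, Hcfc1, Ash2l and Cxxc1 above it and those of the other 6 below it. With Kmt2a+/+ replicate 1, the range of Hcfc1 widened to 382 to 1102, that of Cxxc1 to 173 to 608 and that of Psip1 to 1580.5 to 4926.

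**Figure D2:**
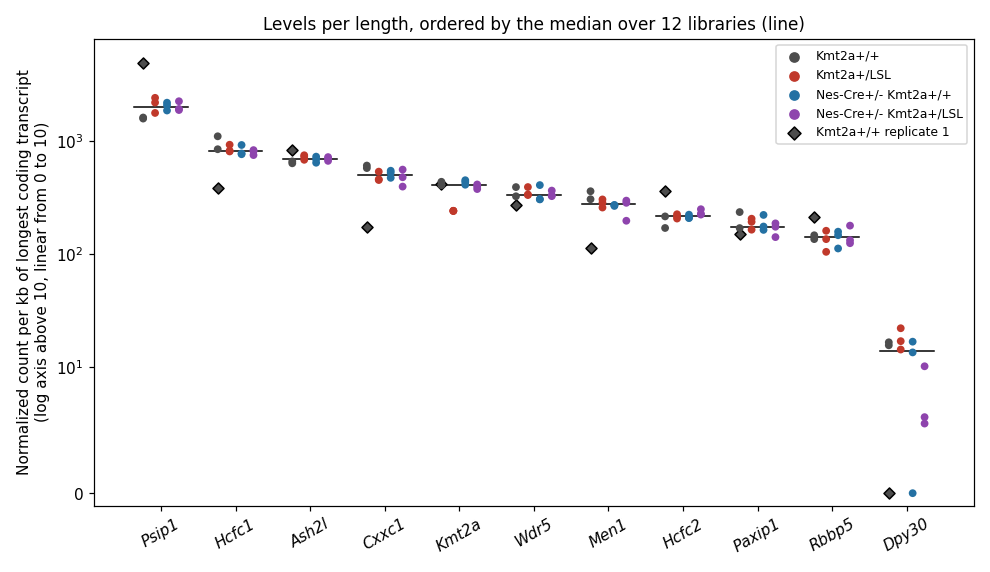
Normalized counts per kb of the longest coding transcript (log axis above 10, linear below) for the 10 partner genes and Kmt2a in each of 12 libraries, coloured by genotype, with the median as a line and Kmt2a+/+ replicate 1 as a diamond. Medians run from 1995 in Psip1 to 14.0 in Dpy30, and the 3 Kmt2a+/LSL points of Kmt2a lie apart at the lower end of its range.

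Menin, the product of the tumour suppressor gene Men1 (chr19:6334979-6340891), holds the amino-terminal part of KMT2A and KMT2B. Men1 had 338, 911 and 1072 normalized counts in the Kmt2a+/+ libraries and 848, 769.6 and 907 in the Kmt2a+/LSL libraries. With nestin-Cre, it had 808, 795 and 809.9 with Kmt2a+/+ and 588, 847 and 886 with Kmt2a+/LSL. Only Kmt2a+/+ replicate 1 and Nes-Cre+/- Kmt2a+/LSL replicate 1 were low, and in those 2 libraries GC-rich transcripts were also lowest against GC-poor ones. The log2 fold change between Kmt2a+/LSL and Kmt2a+/+ was 0.12 (SE 0.33, 95% interval −0.61 to 0.84) with 12 libraries and −0.24 (SE 0.16, −0.60 to 0.12) without Kmt2a+/+ replicate 1. Without that library the adjusted p was 0.600 in edgeR's quasi-likelihood test, and the log2 fold change was −0.014 (SE 0.095) with an offset for GC content in addition. The 2 remaining Kmt2a+/+ libraries did not overlap with Kmt2a+/LSL for 4 of the 10 genes (Men1, Psip1, Ash2l and Cxxc1), beside 29.2% of all genes.

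LEDGF binds nucleosomes methylated at lysine 36 of histone H3 and joins menin in holding KMT2A at chromatin. Its gene Psip1 (chr4:83455680-83486459) had 16016, 5249.7 and 5138 normalized counts in the Kmt2a+/+ libraries and 7836, 7120.2 and 5761 in the Kmt2a+/LSL libraries. In the nestin-Cre libraries there were 7098, 6719 and 6056 with Kmt2a+/+ and 7310.3, 6251 and 6114 with Kmt2a+/LSL. Kmt2a+/+ held both the highest library and the 2 lowest libraries of the 12. The log2 fold change between Kmt2a+/LSL and Kmt2a+/+ was −0.35 (SE 0.37, adjusted p of 1 in edgeR's quasi-likelihood test). It turned to 0.41 (SE 0.15, 95% interval 0.08 to 0.75) without Kmt2a+/+ replicate 1, with an unadjusted p of 0.0195 and an adjusted p of 0.507 in edgeR. With that library left out, 9.68% of all genes had an unadjusted p under 0.05. With an offset for GC content and without that library, the log2 fold change of Psip1 was 0.13 (SE 0.10, unadjusted p 0.223 in edgeR). Between Nes-Cre+/- Kmt2a+/+ and Kmt2a+/+, where both Kmt2a alleles were intact, Psip1 likewise differed by −0.41 (SE 0.37) with 12 libraries and by 0.35 without Kmt2a+/+ replicate 1 (unadjusted p 0.0423 in edgeR, beside 6.73% of all genes under 0.05). Transcripts of Psip1 share 14.8% of their 31-base words with other genes, mostly with the pseudogene Gm15773 (9.16%), and which gene received those reads in the estimated counts is uncertain.

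**Figure D3:**
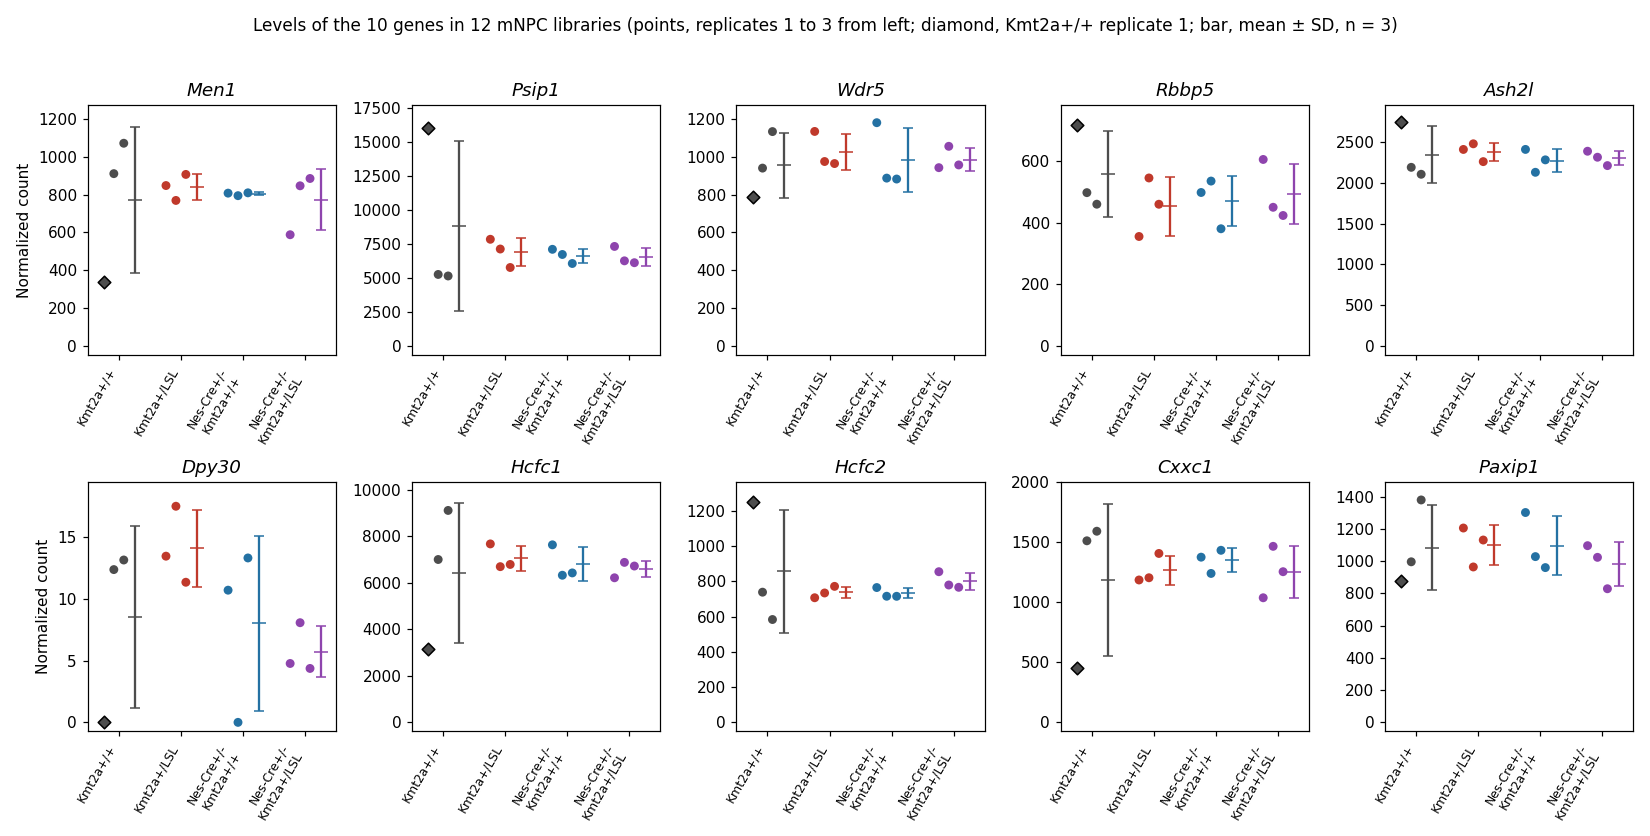
Normalized counts of the 10 partner genes in each library by genotype (points, replicates 1 to 3 from left to right; diamond, Kmt2a+/+ replicate 1; bars, mean ± SD of 3 libraries). In Men1, Psip1, Hcfc1, Hcfc2 and Cxxc1 the Kmt2a+/+ bar is the widest of the 4, and replicate 1 lies at 338, 16016, 3159, 1251 and 453 normalized counts.

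With all 12 libraries, the core subunits Wdr5, Rbbp5 and Ash2l had overlapping libraries in every comparison of 2 genotypes that was made. WDR5, a propeller-shaped scaffold that grips a short motif of the catalytic subunits, is encoded by Wdr5 (chr2:27515157-27536535). Wdr5 had 789, 940.0 and 1133 normalized counts in Kmt2a+/+ and 1134, 975 and 964 in Kmt2a+/LSL, and in the nestin-Cre libraries it had 1180.3, 887 and 882 with Kmt2a+/+ and 942, 1055 and 957 with Kmt2a+/LSL. The Kmt2a+/LSL values lay inside the range of the Kmt2a+/+ and Nes-Cre+/- Kmt2a+/+ libraries, and the log2 fold change against Kmt2a+/+ was 0.10 (SE 0.19, 95% interval −0.31 to 0.51). It was −0.018 (SE 0.16, −0.38 to 0.34) without Kmt2a+/+ replicate 1, and −0.0048 with 12 libraries and the GC offset.

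RBBP5 links the catalytic domain to ASH2L. Rbbp5 (chr1:132477365-132505659) had 719.6, 498 and 461 normalized counts in Kmt2a+/+ and 356, 546 and 460.4 in Kmt2a+/LSL. The nestin-Cre libraries had 499, 536 and 381 with Kmt2a+/+ and 606, 450.5 and 424 with Kmt2a+/LSL. Apart from replicate 1, the Kmt2a+/+ libraries lay inside the range of each other genotype, and the lowest value was Kmt2a+/LSL replicate 1. The log2 fold change between Kmt2a+/LSL and Kmt2a+/+ was −0.30 (SE 0.25) with 12 libraries and −0.08 (SE 0.22, 95% interval −0.57 to 0.41) without Kmt2a+/+ replicate 1. Of the 31-base words of Rbbp5, 11.3% also occur in the pseudogene Gm11977, which is not a row of the table.

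ASH2L, which with RBBP5 stimulates the catalytic domain, had the steadiest transcript of the 10. Ash2l (chr8:25815996-25847694) had 2746, 2189.6 and 2104 normalized counts in Kmt2a+/+ and 2409, 2478 and 2259.6 in Kmt2a+/LSL. The cells with nestin-Cre had 2409, 2129 and 2281 with Kmt2a+/+ and 2387, 2313 and 2211 with Kmt2a+/LSL. Its coefficient of variation over the 11 libraries other than Kmt2a+/+ replicate 1 was 5.38%, against 8.96% to 15.5% in the other 8 partner genes with a mean of at least 50 counts and a median of 15.2% over all such genes. Its interval was also the narrowest, at a log2 fold change of 0.02 (SE 0.15, 95% interval −0.30 to 0.34) between Kmt2a+/LSL and Kmt2a+/+. Without Kmt2a+/+ replicate 1 it was 0.15 (SE 0.11), and with the GC offset in addition it was −0.061 (SE 0.086).

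DPY30, which binds ASH2L as a dimer, is encoded by Dpy30 (chr17:74299474-74323944). The table holds very few counts for Dpy30, with 0, 13 and 16 counts in the Kmt2a+/+ libraries and 15, 18 and 11 in Kmt2a+/LSL. Of the nestin-Cre genotypes it lists 11, 0 and 14 with Kmt2a+/+ and 4, 9 and 4 with Kmt2a+/LSL. A library with 0 counts allows up to 3, and these limits cover counting error only. Which Dpy30 transcripts entered the deposited gene sum is not given in the sources used here, and its low level is reported as listed. Between Kmt2a+/LSL and Kmt2a+/+ the log2 fold change was 0.57 (SE 0.72) with 12 libraries and 0.14 (SE 0.59) without Kmt2a+/+ replicate 1. The values of Nes-Cre+/- Kmt2a+/LSL were all below those of Kmt2a+/LSL, at −1.24 on the log2 scale (SE 0.80, 95% interval −3.00 to 0.51, adjusted p of 1 in edgeR's quasi-likelihood test) and at −1.25 (SE 0.65) without Kmt2a+/+ replicate 1 in the fit. The unadjusted p was 0.147 in edgeR, and 0.0347 (adjusted p 1.00) when the compared genotypes alone were fitted. In that fit 529 genes in all had an unadjusted p under 0.05, against 354 (2.07%) in the fit of 12 libraries. The two-sided exact permutation p was 0.1, the smallest that 3 against 3 libraries can give. Against Nes-Cre+/- Kmt2a+/+, the Nes-Cre+/- Kmt2a+/LSL values overlapped, since a library of that control was at 0.

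HCFC1 and HCFC2 are related host cell factors, large proteins that tie COMPASS and other chromatin enzymes to transcription factors. Hcfc1 (chrX:73942792-73966357) had 3159, 6998 and 9107 normalized counts in Kmt2a+/+ and 7668, 6691 and 6786 in Kmt2a+/LSL. The nestin-Cre libraries had 7629, 6322 and 6422 with Kmt2a+/+ and 6213, 6875 and 6718 with Kmt2a+/LSL. The lowest and the highest library were both Kmt2a+/+, and the other 3 genotypes overlapped throughout. The log2 fold change between Kmt2a+/LSL and Kmt2a+/+ was 0.13 (SE 0.29) with 12 libraries and −0.19 (SE 0.14, 95% interval −0.51 to 0.12) without Kmt2a+/+ replicate 1.

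Hcfc2 (chr10:82696160-82742428), whose transcript is poorer in GC, went the other way in Kmt2a+/+ replicate 1. It had 1251, 739 and 584 normalized counts in Kmt2a+/+ and 708, 735 and 772 in Kmt2a+/LSL. With nestin-Cre, it had 765, 716 and 716 with Kmt2a+/+ and 855, 779.8 and 767 with Kmt2a+/LSL. The last genotype lay above Nes-Cre+/- Kmt2a+/+ in every library, by a narrow margin, and the log2 difference was 0.13 (SE 0.24, 95% interval −0.40 to 0.65), with a two-sided exact permutation p of 0.1. With 12 libraries, Hcfc2 was the only one of the 10 genes without overlap in that comparison, beside 6.68% of all genes tested. When Kmt2a+/+ replicate 1 was left out of the scaling, the libraries of Hcfc2 overlapped there, with a two-sided exact permutation p of 0.2. Between Kmt2a+/LSL and Kmt2a+/+, its log2 fold change was −0.21 (SE 0.24) with 12 libraries and 0.16 (SE 0.13, 95% interval −0.14 to 0.46) without Kmt2a+/+ replicate 1. Per kb, Hcfc1 was the more abundant of the pair in all libraries, with 382 to 1102 normalized counts per kb against 171 to 366 for Hcfc2.

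CXXC1 binds unmethylated CpG and belongs to the SETD1A and SETD1B complexes. Cxxc1 (chr18:74216124-74221496) had 453, 1512 and 1592 normalized counts in Kmt2a+/+ and 1186, 1205 and 1407 in Kmt2a+/LSL. In the nestin-Cre libraries there were 1376, 1240.5 and 1433 with Kmt2a+/+ and 1038, 1466 and 1255 with Kmt2a+/LSL. Of the 9 genes with a mean of at least 50 counts, its value in Kmt2a+/+ replicate 1 was the furthest below the other 11 libraries, whose median was 3.04 times as high. Between Kmt2a+/LSL and Kmt2a+/+ it differed by 0.09 on the log2 scale (SE 0.36) with 12 libraries and by −0.30 (SE 0.15, 95% interval −0.62 to 0.03) without Kmt2a+/+ replicate 1. In the latter fit the adjusted p was 0.531 in edgeR. With the GC offset in addition, the log2 fold change of Cxxc1 was −0.05 (SE 0.10).

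PAXIP1, a protein with BRCT repeats, belongs to the KMT2C and KMT2D complexes. Paxip1 (chr5:27740080-27791691) had 876, 996 and 1379.95 normalized counts in Kmt2a+/+ and 1206, 964 and 1131 in Kmt2a+/LSL. The cells with nestin-Cre had 1302, 1028 and 960.3 with Kmt2a+/+ and 1096, 1024 and 829 with Kmt2a+/LSL. The genotypes overlapped in all of these values. Its log2 fold change between Kmt2a+/LSL and Kmt2a+/+ was 0.02 (SE 0.21) with 12 libraries and −0.11 (SE 0.20, 95% interval −0.54 to 0.32) without Kmt2a+/+ replicate 1.

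How large a change these data leave possible depends on Kmt2a+/+ replicate 1. For the 9 partner genes other than Dpy30, the 95% intervals of the log2 fold change between Kmt2a+/LSL and Kmt2a+/+ reached from −1.15 (Psip1) to 0.87 (Cxxc1) with 12 libraries. Without that library they reached from −0.62 (Cxxc1) to 0.75 (Psip1), which corresponds to 0.650 to 1.68 times the Kmt2a+/+ level. Every lower bound lay above the change of −0.80 in the summed Kmt2a transcripts. The median SE of the 10 genes went from 0.27 to 0.16, and the biological coefficient of variation over all genes from 0.368 to 0.231. With the GC offset and without that library, the intervals of the 9 genes reached from −0.62 (Rbbp5) to 0.38 (Wdr5).

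Where nestin-Cre had removed the stop, Kmt2a was higher in every library, and none of the partner genes passed the test. When Nes-Cre+/- Kmt2a+/LSL was compared to Kmt2a+/LSL, Kmt2a differed by 0.71 (SE 0.13, adjusted p of 1 in edgeR with 12 libraries and 0.0596 without Kmt2a+/+ replicate 1), and its libraries did not overlap. Of the partner genes, 2 had a positive and 8 a negative log2 fold change (50.3% of all genes were positive), with a median of −0.07 beside 0.00 over all genes. In edgeR's quasi-likelihood test 0 of 10 passed an adjusted p of 0.05 (0% of all genes), 0 had an unadjusted p under 0.05 (2.07% of all genes), and DESeq2 and limma-voom called 0. Libraries did not overlap for 1 of the 10, the sparsely counted Dpy30, beside 7.1% of all genes. This comparison sets no Kmt2a+/+ library against another, but all 12 libraries share the scaling and the estimate of the spread. Without Nes-Cre+/- Kmt2a+/LSL replicate 1, the other library in which GC-rich transcripts were low, Men1 (0.042), Rbbp5 (−0.054) and Cxxc1 (0.10) turned in direction. The log2 fold changes of the 9 genes other than Dpy30 ran from −0.16 (Paxip1) to 0.12 (Rbbp5), and their 95% intervals reached from −0.87 (Psip1) to 0.76 (Cxxc1), past the Kmt2a change of 0.71. Without Kmt2a+/+ replicate 1 in the fit the intervals reached from −0.56 (Paxip1) to 0.55 (Rbbp5), and the upper bounds lay below the Kmt2a change of 0.70 in that fit. This comparison and that of Kmt2a+/LSL with Kmt2a+/+ share the Kmt2a+/LSL libraries.

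**Figure D4:**
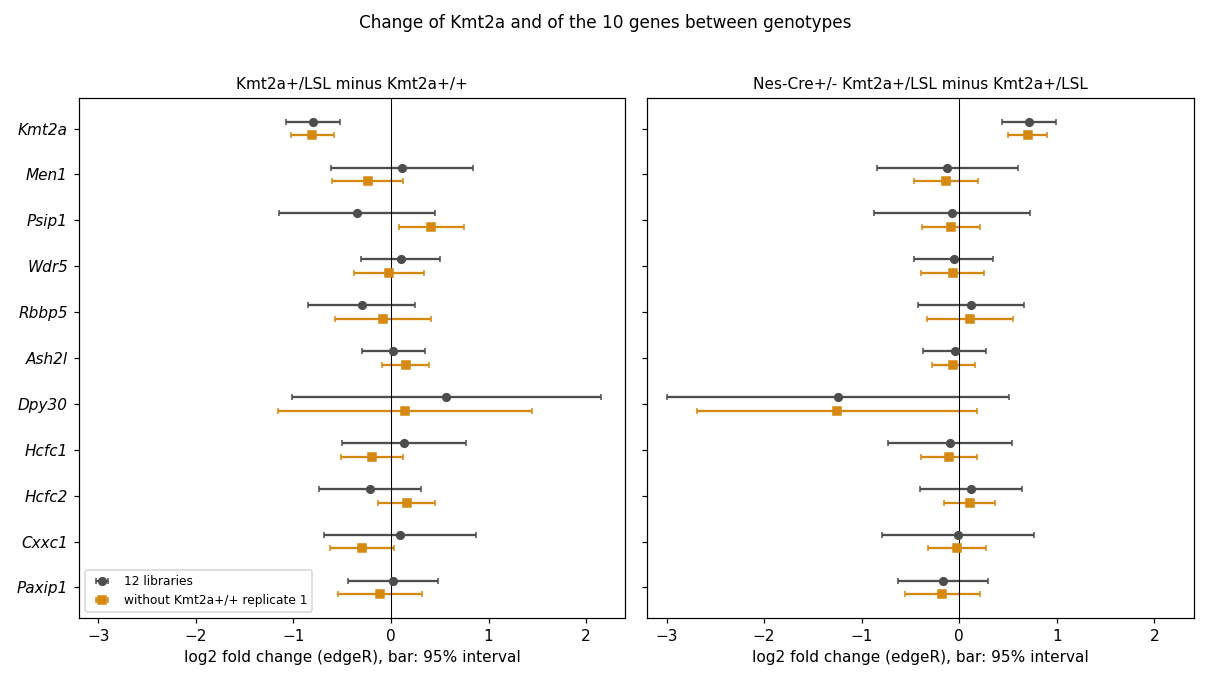
Log2 fold changes with 95% intervals for Kmt2a and the 10 partner genes, Kmt2a+/LSL minus Kmt2a+/+ on the left and Nes-Cre+/- Kmt2a+/LSL minus Kmt2a+/LSL on the right, with 12 libraries (circles) and without Kmt2a+/+ replicate 1 (squares). The intervals of Kmt2a lie apart from 0 on both sides, those of the partner genes include 0 except for Psip1 at 0.41 without that library, and the interval of Dpy30 is the widest.

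The remaining comparisons gave no call among the partner genes. Against Nes-Cre+/- Kmt2a+/+, the Nes-Cre+/- Kmt2a+/LSL libraries differed by −0.16 (Paxip1) to 0.13 (Hcfc2) in the 9 genes other than Dpy30, and 0 of 10 passed the edgeR test at an adjusted p of 0.05 (0% of all genes) or an unadjusted p of 0.05 (1.53%). Between Nes-Cre+/- Kmt2a+/+ and Kmt2a+/+, 0 of 10 passed at the adjusted (0%) or the unadjusted threshold (1.76%), and the 9 genes differed by −0.41 (Psip1) to 0.18 (Cxxc1). When Kmt2a+/+ replicate 1 was left out, the range was −0.31 (Men1) to 0.35 (Psip1), so that Psip1 moved from the lowest to the highest of the 9. With all 12 libraries, those of these 2 genotypes overlapped for all 10 genes, beside 4.35% of all genes without overlap. Without Kmt2a+/+ replicate 1, Men1 and Cxxc1 were lower and Psip1 was higher in every Nes-Cre+/- Kmt2a+/+ library. The share of all genes without overlap is not given for that fit. With Kmt2a+/LSL set against the mean of the other 3 genotypes, 0 of 10 passed (adjusted, 0.00586% of all genes; unadjusted, 1.51%). The change that the LSL allele made in nestin-Cre cells minus the change it made in cells lacking Cre passed for 0 of 10 (adjusted, 0%; unadjusted, 2.01%), and lay between −0.20 (Cxxc1) and 0.36 (Rbbp5) in the 9 genes. In the fit without Kmt2a+/+ replicate 1 it ran from −0.43 (Psip1, unadjusted p 0.0552 and adjusted p 0.978 in edgeR) to 0.18 (Cxxc1). In the edgeR test of any difference among the 4 genotypes, 0 of 10 passed (adjusted, 0%; unadjusted, 1.73%), and the smallest unadjusted p was 0.482 with 12 libraries and 0.0986 without Kmt2a+/+ replicate 1. DESeq2 and limma-voom called 0 of the 10 in each of these comparisons.

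The other genes of the complexes and their partners were described in the same way, in 4 lists. In edgeR with 12 libraries, 0 genes of these lists passed an adjusted p of 0.05 in any comparison, and the values that follow are log2 fold changes between Kmt2a+/LSL and Kmt2a+/+. Of the 6 catalytic subunits, 1 had an unadjusted p under 0.05, Kmt2a itself, and the other end of the list was Setd1a at 0.24 (SE 0.27). The list had 3 positive and 3 negative values and a median of 0.00. Without Kmt2a+/+ replicate 1 that median was −0.30 and Setd1a was at −0.074, and the median over all genes was 0. This median includes Kmt2a itself. Kmt2b, Kmt2d, Setd1a and Setd1b are rich in GC (59.1%, 58.4%, 57.0% and 59.0%), and no value with the GC offset is given for this list. The part of base composition in this median was not tested.

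Of the 6 further COMPASS subunits, most of which belong to the KMT2C, KMT2D or SETD1 complexes, Bod1l was lowest at −1.28 (SE 0.45, unadjusted p 0.0146 and adjusted p of 1 in edgeR) and Pagr1a highest at 0.68 (SE 0.34). Bod1l had 1706 normalized counts in Kmt2a+/+ replicate 1, against a mean of 371 in Kmt2a+/LSL, and its log2 fold change was −0.44 (unadjusted p 0.103 in edgeR) without that library. The list had 3 positive and 3 negative values and a median of 0.02, which was −0.044 without Kmt2a+/+ replicate 1, when 0 of the 6 had an unadjusted p under 0.05. Between Nes-Cre+/- Kmt2a+/+ and Kmt2a+/+, 3 of the 6 had an unadjusted p under 0.05 in edgeR (1.76% of all genes). Without Kmt2a+/+ replicate 1 it was 2 of the 6 (6.73% of all genes).

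Of the 15 binding partners of these subunits outside COMPASS, 8 had positive and 7 negative values, 0 had an unadjusted p under 0.05 and the median was 0.00. They ran from Hdgfl2 at −0.28 (SE 0.61; −0.60 without Kmt2a+/+ replicate 1) to Mcrs1, a subunit of a histone acetyltransferase complex that also holds WDR5, at 0.45 (SE 0.65). Mcrs1 had 175 normalized counts in Kmt2a+/+ replicate 1 against a mean of 2838 in Kmt2a+/LSL, and its log2 fold change was −0.09 without it. Without that library the median of the 15 was −0.092 and 2 had an unadjusted p under 0.05 in edgeR (9.68% of all genes). These were Iws1 at 0.70 (p 0.0042) and Thap11 at −0.36 (p 0.040). Their GC contents were 41.8% and 58.1%, and no value with the GC offset is given for them. Of 8 genes known as targets of menin and KMT2A, 5 were tested, and Hoxa5, Hoxa9 and Hoxa10 were not. The 5 had 1 positive and 4 negative values with a median of −0.24, from Cdkn1b, an inhibitor of cyclin-dependent kinases, at −0.34 (SE 0.26) to Cdkn2c, another such inhibitor, at 0.26 (SE 0.21), and 0 had an unadjusted p under 0.05. Without Kmt2a+/+ replicate 1 the median of the 5 was 0.15 and Cdkn1b was at 0.11.

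The genes with the most similar pattern over the 12 libraries, taken as the smallest mean absolute difference of centred log2 levels among 11677 genes, were Mrps34 for Men1 (0.05), Smc3 for Psip1 (0.05), Rnps1 for Wdr5 (0.04), 2810021J22Rik for Rbbp5 (0.11) and Plekha8 for Ash2l (0.03). For Hcfc1 it was Prpf19 (0.05), for Hcfc2 Dnajc1 (0.05), for Cxxc1 Fiz1 (0.05) and for Paxip1 Rtel1 (0.07). The median difference over all genes was between 0.24 (Ash2l) and 0.35 (Cxxc1). Without Kmt2a+/+ replicate 1 the nearest gene was another one for 8 of the 9, among them Rad21 for Psip1 (0.05) and Thoc6 for Men1 (0.04), and Rnps1 was again nearest to Wdr5 (0.04).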

How the data were processed

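Per the labels and the study's methods, the authors pseudoaligned reads to the mm10 (GRCm38) transcriptome with kallisto 0.48.0, imported the result with tximport and summed it per gene. The deposited table holds estimated counts per gene, not normalized. They were rounded to whole numbers and used as they are. Genotypes and replicate numbers come from the labels. Symbols came from the GRCm38 annotation, and 193 genes had none.

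Genes whose counts summed to over 10, with a count in 2 or more libraries, were tested with R 4.3.3 and edgeR 4.0.16. The settings were TMM normalization, quasi-likelihood F-test, two-sided, all 12 libraries, genotype as the only term, and Benjamini-Hochberg adjustment over all genes tested. The fit was also run on simulated counts without a GC gradient, and the outcome of that run is not given here. Adjusted p under 0.05 was a call. A prior count of 2 was used for log2 levels. Shared sequence is the share of 31-base words found in transcripts of other genes, and GC content is that of the longest transcript. Single genes were compared with two-sided exact permutation tests. Alternatives were DESeq2 1.42.0, limma 3.58.1 (voom), other size factors, filters, libraries in the fit, a replicate block and each library left out. The GC offsets (loess span 0.5) were added after seeing the data. The genes and lists were chosen with earlier results of these data known. The genes named by a rule set beforehand are the 10 and Kmt2a, the lowest and highest of each list between Kmt2a+/LSL and Kmt2a+/+, and the gene most similar to each of the 10 with a mean of at least 50 counts. Named besides these were cell type markers, Iws1 and Thap11 for their unadjusted p without Kmt2a+/+ replicate 1, and Grb10 because it was called. Kmt2b, Kmt2d and Setd1b were named for their GC content, and Hoxa7 for its low counts.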

Additional observations from a re-analysis of the deposited data

How the results depend on the processing

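Under 25 other settings, 0 of the 10 partner genes were called in any comparison. Their 1434 log2 fold changes under these settings held the direction in 1280 and turned in 154, and the smallest adjusted p of any was 0.507 (Psip1 without Kmt2a+/+ replicate 1, edgeR). For Dpy30, the table lists 0 to 18 counts in a library, which limits the precision of its values. The fit of the 9 libraries without Nes-Cre+/- Kmt2a+/+ gave no value for comparisons that need that genotype, and Dpy30 had none where 10 counts were asked of every library.

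Without Kmt2a+/+ replicate 1, the fold change between Kmt2a+/LSL and Kmt2a+/+ turned for Men1 (−0.24), Psip1 (0.41), Wdr5 (−0.018), Hcfc1 (−0.19), Hcfc2 (0.16), Cxxc1 (−0.30) and Paxip1 (−0.11). With the GC offset it turned for Men1 (−0.075), Wdr5 (−0.0048), Cxxc1 (−0.13) and Paxip1 (−0.044). With the GC offset and without Kmt2a+/+ replicate 1 it turned for Men1 (−0.014), Psip1 (0.13), Ash2l (−0.061), Dpy30 (−0.14), Hcfc1 (−0.026), Hcfc2 (0.067), Cxxc1 (−0.0499) and Paxip1 (−0.078). The DESeq2 Wald test gave −0.0197 for Ash2l and −0.0147 for Paxip1, and DESeq2 size factors in edgeR gave −0.0206 and −0.0146. With 1 library left out at a time, this fold change ranged from −0.24 to 0.42 for Men1, −0.62 to 0.41 for Psip1, −0.018 to 0.24 for Wdr5, −0.48 to −0.08 for Rbbp5, −0.0504 to 0.15 for Ash2l, 0.14 to 0.96 for Dpy30, −0.19 to 0.47 for Hcfc1, −0.43 to 0.16 for Hcfc2, −0.30 to 0.36 for Cxxc1 and −0.11 to 0.23 for Paxip1.

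When Nes-Cre+/- Kmt2a+/LSL was compared to Kmt2a+/LSL, Cxxc1 turned to 0.067 with the GC offset, with and without Kmt2a+/+ replicate 1. With 1 library left out, the ranges were −0.23 to 0.042 for Men1, −0.19 to 0.026 for Psip1, −0.11 to 0.023 for Wdr5, −0.054 to 0.28 for Rbbp5 and −0.14 to 0.10 for Cxxc1, while Ash2l, Dpy30, Hcfc1, Hcfc2 and Paxip1 kept their direction. The cause of these turns was not tested beyond the settings named.

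Over all genes, the number called was 0 in edgeR except for 1 gene with Kmt2a+/LSL against the other 3 genotypes (Grb10, log2 fold change −1.35, SE 0.15, adjusted p 0.0191). The DESeq2 Wald test called 7 (Kmt2a+/LSL against Kmt2a+/+), 7 (Nes-Cre+/- Kmt2a+/LSL against Kmt2a+/LSL), 3 (Nes-Cre+/- Kmt2a+/LSL against Nes-Cre+/- Kmt2a+/+), 3 (Nes-Cre+/- Kmt2a+/+ against Kmt2a+/+), 4 (Kmt2a+/LSL against the other 3), 10 (the difference of the LSL effects) and 5 (any difference). The GC offset called 1, 1, 2 and 1 and, without Kmt2a+/+ replicate 1 in addition, 2, 2, 2 and 2 for Kmt2a+/LSL against Kmt2a+/+, Nes-Cre+/- Kmt2a+/LSL against Kmt2a+/LSL, Kmt2a+/LSL against the other 3 and any difference. Keeping only genes with 10 or more counts per library called 2 with Kmt2a+/LSL against the other 3. With 1 library left out, the counts ranged from 0 to 2 (Kmt2a+/LSL against Kmt2a+/+), 0 to 1 (Nes-Cre+/- Kmt2a+/LSL against Kmt2a+/LSL), 0 to 2 (Kmt2a+/LSL against the other 3) and 0 to 3 (any difference), each highest without Kmt2a+/+ replicate 1.

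Same-numbered libraries of different genotypes deviated together only weakly, with correlations across genes that averaged 0.137 for 18 pairs (−0.136 to 0.588, 8 pairs over 0.1), against −0.0653 over 36 pairs with different numbers, and 3 of 12 libraries correlated best with their own number. With the replicate block, all 60 log2 fold changes of the partner genes held their direction and their side of the threshold, Kmt2a+/LSL against the other 3 genotypes gave 0 called genes, and the GC offset with the replicate block gave 1 for any difference.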
